A study of Rattus norvegicus with 6 samples.

Results

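The tripartite motif (TRIM) genes encode a large family of proteins, most of which act as E3 ubiquitin ligases. These are the enzymes that choose the protein to which ubiquitin is attached. The count table of the rat amygdala held 58 genes with a symbol made of Trim, a number and at most 1 letter, and 47 of them had 10 or more counts in at least 3 of the 6 libraries. These 47 genes, out of 38445 in the whole table, are described here. The libraries came from adult male rats (strain label Sprague Dawley/WT) that were injected intraperitoneally with saline (control) or with ethanol at 1 g/kg, and the amygdala was taken 1 h later. RNA of 2 rats was pooled for every library, giving 3 libraries from the 6 rats of either treatment, so the values of single animals are not seen. Symbols came from a RefSeq gene table and were matched by gene identifier. Trim56, whose identifier in that table was not matched in the counts, was not analysed here.

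A TRIM protein carries a RING finger, 1 or 2 B-box zinc fingers and a coiled coil, in this order. The RING finger binds the E2 enzyme that is loaded with ubiquitin, and the part behind the coiled coil differs between subfamilies and binds substrates, microtubules or chromatin. In the nervous system the family is known for axon branching, for the turnover of neurofilament and synaptic proteins, and for the silencing of transposable elements. In muscle and in virus-infected cells it is known for protein breakdown and for innate immunity.

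Trim54 encodes muscle RING finger protein 3 (MuRF3), a ligase that binds microtubules and the contractile apparatus of muscle. It was the only 1 of the 47 genes with an unadjusted p below 0.05 in the comparison of ethanol with control. In Rnor_6.0 it lies on the minus strand of chromosome 6, from 26603364 to 26623950, in 9 exonic blocks of 1411 bases that share no base with another gene. The 250 bases upstream of the gene are shown with those of Trim63 (MuRF1), its better known paralog, because the Trim54 groups did not overlap while those of Trim63 did. They were read from RefSeq in the GRCr8 build, at chr6:30978476-30978725 on the minus strand for Trim54 and chr5:151816986-151817235 on the plus strand for Trim63. Capitals mark the muscle-type E-box (CAGCTG) in both genes and the glucocorticoid response element (GNACA and TGTNC with 3 bases between them) in Trim63.
Trim54: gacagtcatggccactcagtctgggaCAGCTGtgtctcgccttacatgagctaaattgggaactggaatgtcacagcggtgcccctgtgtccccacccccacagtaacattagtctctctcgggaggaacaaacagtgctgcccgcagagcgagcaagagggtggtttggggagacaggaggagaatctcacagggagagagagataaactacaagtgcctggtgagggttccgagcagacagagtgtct
Trim63: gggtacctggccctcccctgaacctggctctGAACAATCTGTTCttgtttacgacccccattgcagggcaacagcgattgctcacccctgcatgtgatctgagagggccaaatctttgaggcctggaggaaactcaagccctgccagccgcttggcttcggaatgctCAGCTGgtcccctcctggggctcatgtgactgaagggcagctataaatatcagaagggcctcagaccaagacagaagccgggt

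Of the 47 genes, 37 had an upstream sequence in this table. The E-box, searched on both strands, began 224 bases before the start of Trim54 and 83 bases before that of Trim63. It was found in 6 of the 37 (Trim2, Trim5, Trim7, Trim54, Trim62 and Trim63), or 16.2%, against 11.97% of all 33469 upstream sequences of the same length. The glucocorticoid response element was found in Trim63 alone of the 37, against 0.37% of all. The MEF2 site (CTA and TAG with 4 bases between them) was found in Trim28 and Trim72, and the interferon-stimulated response element (TTTC and TTTC with 2 bases between them) in Trim21 and Trim26. Each of these was found in 3.41% of all upstream sequences. A match is a description of the letters, not a site of binding.

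The reads assigned to genes numbered 62576504 to 70755739 per library. Levels are given as CPM (counts scaled to a common library size, with TMM factors between libraries) within a gene and as RPKM (the same per kilobase of exon) between genes. A count of 3 was worth 0.0422 to 0.0473 CPM here, a floor that covers counting error only. The 2 genes just inside the rule of 10 counts were Trim50, with 8, 28 and 6 counts in controls and 15, 12 and 11 after ethanol, and Trim43a, with 11 to 28 counts in the 6 libraries. Trim29, with 13 to 31 counts, was next. Just outside it were Trim10 (6 to 14 counts), Trim58 (1 to 11) and Trim6 (1 to 7). Trim30c and Trim71 had at most 8 counts in a library, Trim31, Trim38, Trim40 and Trim52 at most 2, and Trim42 and Trim60 had 0 in each library.

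The 47 genes together took 0.201% to 0.212% of the assigned reads in every library. Their mean RPKM over the 6 libraries ran from 69.1 (Trim44) to 0.0754 (Trim50), a 916-fold range with a median of 3.81. There were 14 genes at 10 RPKM or more, 18 between 1 and 10, and 15 below 1. The 5 genes with the highest CPM held 49.8% of the family's reads and the 10 highest 75.2%. RPKM depends on the exon length of the annotation, which is 1035 bases for Trim44 and 12612 for Trim66, the next of the genes without a RING finger (2.54 RPKM).

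**Figure D1:**
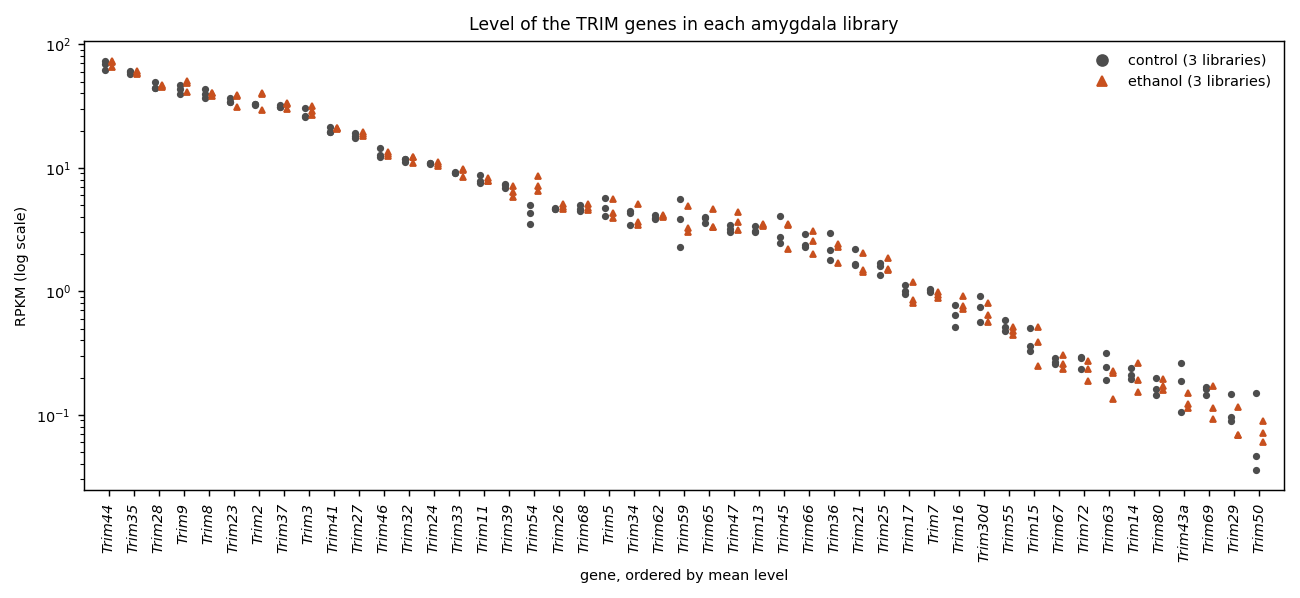
RPKM (log scale, vertical axis) of the 47 TRIM genes, ordered by mean level along the horizontal axis, with 1 point per library (3 control, 3 ethanol). The levels run from 69.1 RPKM for Trim44 to 0.0754 for Trim50, and Trim54, at 5.85 RPKM, is the gene whose ethanol points all lie above its control points.

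By subfamily, the highest levels per length were spread over many branches. Trim44, which lacks a RING finger, was highest of all per length, with 75.2, 71.95 and 64.6 CPM in controls and 75.7, 73.9 and 67.6 CPM after ethanol. Of the PRY-SPRY subfamily (C-IV, 21 genes), Trim35 and Trim41 were highest, with mean RPKM of 59.5 and 20.5. The subfamily with a PHD finger and a bromodomain (C-VI) works in chromatin, and its best known member Trim28 (KAP1), the corepressor of KRAB zinc finger proteins, was at 46.0 RPKM, with Trim24 at 10.8 and Trim33 at 9.23. The microtubule-associated subfamily (C-I) was led by Trim9, a brain-enriched ligase of axon guidance and branching, at 45.1 RPKM, and by Trim46, which bundles microtubules at the start of the axon, at 13.1. Of the NHL-repeat subfamily (C-VII), Trim2, which ubiquitinates neurofilament light chain, was at 34.5 RPKM, Trim3 at 28.2 and Trim32 at 11.7. Trim8, Trim23 (with a domain like that of ARF GTPases) and Trim37 (with a MATH domain) were at 39.7, 35.4 and 31.7 RPKM. The muscle RING fingers (C-II) lay lower, with Trim54 at 5.85, Trim55 at 0.502 and Trim63 at 0.222 RPKM. Trim13, which is anchored in the endoplasmic reticulum, was at 3.29 RPKM and Trim45 at 3.06.

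The question of the comparison was which genes differ in the amygdala 1 h after ethanol. With edgeR's quasi-likelihood test, 0 of the 47 genes had an adjusted p below 0.2, as for all 18141 genes tested (0%, smallest adjusted p 0.818). At an unadjusted p below 0.05, 1 of the 47 was higher (2.13%, against 1.57% of all genes tested) and 0 were lower (against 2.58%). DESeq2 and edgeR's likelihood ratio test each gave 1 gene with an adjusted p below 0.2, which was Trim54 both times, and limma-voom and limma-trend gave 0. Over all genes, DESeq2 called 75 of the 17783 with an adjusted p (0.422%) and the likelihood ratio test 77 of 18141 (0.424%). The 3 ethanol libraries were all above the 3 control libraries for 1 gene (Trim54), against 3.65% of all genes tested, and all below them for 1 gene (Trim7), against 5.19%. The log2 fold change was above 0 for 21 and below 0 for 26 of the 47 genes, with a median of -0.017 against 0.006 over all genes tested. For 39 of the 47 (83.0%) it was within 0.2 of 0, close to the 81.9% of all genes tested. The counts from the quasi-likelihood test and of groups that do not overlap are near the background. With DESeq2 and the likelihood ratio test the share was 2.13% of the 47, against 0.422% and 0.424% of all genes, and it rests on Trim54 alone. The standard errors, from 0.06 to 0.54 on the log2 scale with a median of 0.15, set how small a change could be seen. Both ends of the range apart from Trim54 depended on single libraries. Trim43a was at -0.52 with all libraries, -0.209 without control library 1 and -0.793 without control library 3. Trim16 was at 0.32 with all libraries, 0.178 without control library 2, 0.205 without ethanol library 3 and 0.464 without control library 1.

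**Figure D2:**
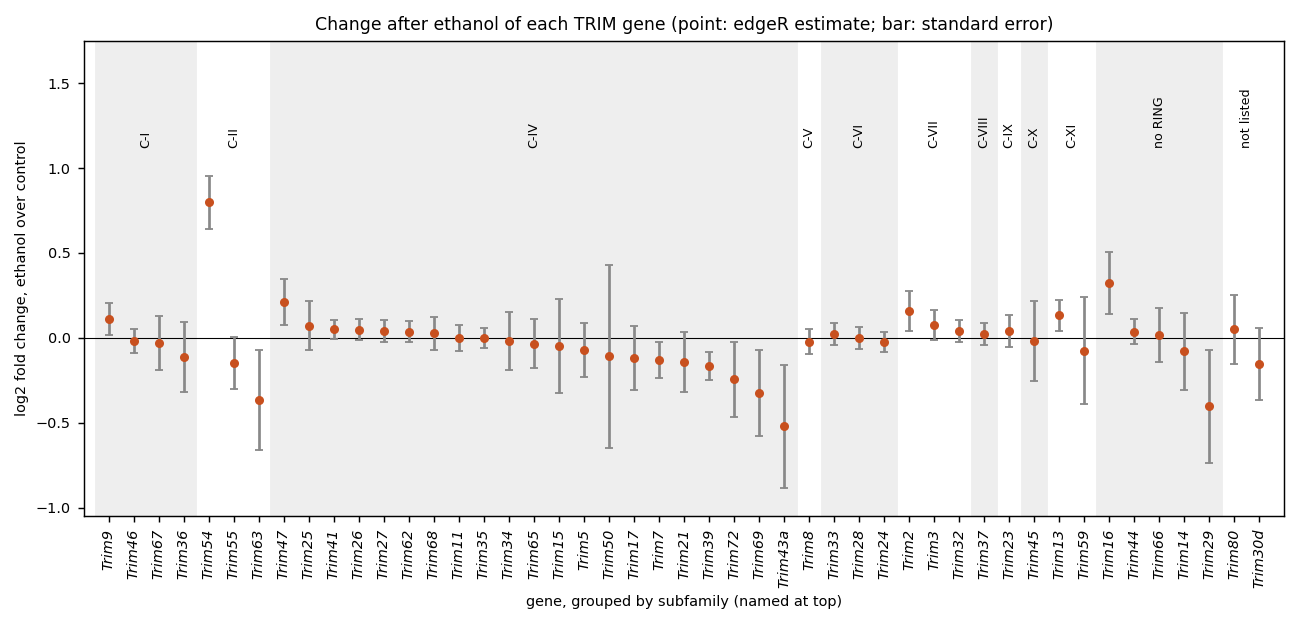
Log2 fold change of ethanol over control (vertical axis) with its standard error for each of the 47 genes, grouped by subfamily along the horizontal axis. Trim54 lies at 0.80, and the other genes lie between -0.52 (Trim43a) and 0.32 (Trim16).

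The CPM of Trim54 was 6.12, 4.97 and 7.003 in control libraries 1, 2 and 3, and 10.1, 9.22 and 12.05 in those given ethanol. Every ethanol library lay above the highest control. The control mean was 6.03 ± 1.02 CPM and the ethanol mean 10.5 ± 1.44 CPM (each SD, n = 3). The fitted difference was 0.80 ± 0.15 (SE) on the log2 scale, or 1.74-fold, and its adjusted p was 0.818 (edgeR's quasi-likelihood test). It ranked 19 of the 18141 genes by its unadjusted p of 0.00095 and 75 by the size of its log2 fold change. The 2-sided exact permutation test on the 6 libraries gave p = 0.1, the smallest that 3 libraries against 3 allow. Groups that do not overlap always give this value, so it restates that Trim54 separated them. The adjusted p was 0.00404 with DESeq2 and 0.0142 with edgeR's likelihood ratio test, and 0.812 with limma-voom. Leaving out each library in turn gave log2 fold changes from 0.675 to 0.918. Tbr1, a marker of pallial glutamatergic neurons, also had groups that did not overlap, with 15.1, 13.7 and 14.9 CPM in controls and 22.8, 21 and 20.01 CPM after ethanol (log2 fold change 0.55, adjusted p = 0.818, edgeR's quasi-likelihood test). Tbr1 was the 1 gene of the 6 in its marker list with an unadjusted p below 0.05 in that test (16.7%, against 1.57% of all genes tested for higher genes). The sum of that list, 763, 1388 and 1039 CPM in controls and 1160, 1487 and 778 CPM after ethanol, overlapped between the groups. The part of these cells in the Trim54 values was not tested.

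The paralogs of Trim54 did not separate the groups. Trim55 (MuRF2) had 1.41, 1.32 and 1.63 CPM in controls and 1.40, 1.31 and 1.22 after ethanol, and its log2 fold change was -0.15 (standard error 0.15, adjusted p = 1.0, edgeR's quasi-likelihood test). Trim63 (MuRF1), the ligase induced in muscle wasting, had 0.352, 0.451 and 0.584 CPM in controls and 0.249, 0.404 and 0.417 after ethanol. Its log2 fold change was -0.37 (standard error 0.29, adjusted p = 1.0 from the same test), and the groups overlapped for both paralogs. The difference between the paralogs was compared through their ratio within each library. The log2 ratio of Trim54 to Trim55 was 2.02 ± 0.12 (SD, n = 3) in controls and 2.96 ± 0.27 (SD, n = 3) after ethanol, a difference of 0.94 (2-sided exact permutation test, p = 0.1). The log2 ratio of Trim54 to Trim63 was 3.64 ± 0.33 (SD, n = 3) and 4.78 ± 0.39 (SD, n = 3), a difference of 1.15 (2-sided exact permutation test, p = 0.1). Trim63 had 16 to 37 counts per library, so the ratio to it is the less certain. The ratios of the groups did not overlap in either case. These were the only 2 pairs compared, both hold the same Trim54 values, and the p was not adjusted over the 2 pairs. Trim54 alone already separated the groups, so the ratios are no separate support for a difference between the paralogs.

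**Figure D3:**
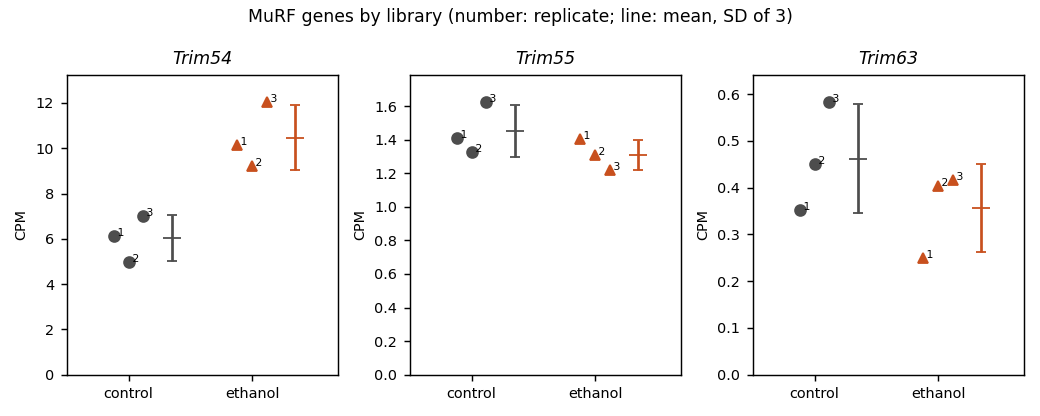
CPM (vertical axes, starting at 0) of Trim54, Trim55 and Trim63 in each control and ethanol library, with the replicate number beside each point and the mean with SD of 3 libraries beside each group. For Trim54 the ethanol libraries lie at 9.22 CPM and above and the controls at 7.003 CPM and below, while the groups overlap for Trim55 and Trim63.

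Because the MuRF proteins are known from muscle, genes of muscle were examined in the same libraries. The muscle genes Ckm, Mb, Actc1 and Tnni2 were at or near 0, with at most 0.0623 CPM in any library, and these 4 were singled out after their values were seen. The other muscle-fibre genes of the list were detected, with Acta1 at 11.2 to 13.1 CPM, Myh7 at 5.44 to 6.91 CPM, Des at 2.39 to 6.18 CPM and Myh2 at 2.03 to 3.07 CPM. Myh1 lay between 1.49 and 2.03 CPM, and Myh4, Ttn and Tnnt3 were below 1 CPM in each library. The sum of the 17 atrophy and sarcomere genes was 92.9 to 112 CPM in controls and 101 to 115 CPM after ethanol. Much of it came from the transcription factors Foxo1, Foxo3 and Klf15, at 22.8, 16.9 and 22.8 of 92.9 CPM in control library 1. The sum thus says little about the muscle-fibre genes. Of the 13 genes of the list that were tested, 0 had an adjusted p below 0.2 from edgeR's quasi-likelihood test. In the same test 1 had an unadjusted p below 0.05 and was higher after ethanol (7.69%, against 1.57% of all genes tested). That gene was Klf15, a glucocorticoid-induced transcription factor, which had 22.8, 26.5 and 24.1 CPM in controls and 25.1, 31.9 and 36.1 CPM after ethanol (log2 fold change 0.34, standard error 0.13). Foxo1 and Acta1, the tested genes with the highest RPKM of this list, had log2 fold changes of -0.09 and 0.05. The other atrophy ligase, Fbxo32, had 0.04.

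Trim7, a ligase that binds glycogenin, was the other gene whose groups did not overlap. It had 3.98, 4.22 and 4.16 CPM in controls and 3.79, 3.96 and 3.53 CPM after ethanol, so that the lowest control and the highest ethanol library differed little. Its log2 fold change was -0.13 (standard error 0.11, adjusted p = 1.0, edgeR's quasi-likelihood test; 2-sided exact permutation test, p = 0.1). The permutation p follows from groups that do not overlap, for which the gene was named, so it adds no support.

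Of the NHL-repeat genes, Trim2 varied more among the ethanol libraries than among the controls, with coefficients of variation of 16.7% and 1.18%. It had 214, 215 and 210 CPM in controls and 262, 260 and 192 CPM after ethanol. Ethanol libraries 1 and 2 were thus above every control, and ethanol library 3 was below every control. Its log2 fold change was 0.16 (standard error 0.12, adjusted p = 1.0, edgeR's quasi-likelihood test), and without ethanol library 3 it was 0.29 (adjusted p = 0.191 from the same test). Trim3, which acts on scaffold proteins of the postsynapse, had 74.1, 86.6 and 74.8 CPM in controls and 82.0, 90.1 and 76.0 CPM after ethanol. Trim32, mutated in a limb-girdle muscular dystrophy, lay between 107 and 120 CPM in the 6 libraries. Of the 3 genes of this subfamily, 0 passed the test.

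Trim9 and Trim23, like Trim2, were above every control in ethanol libraries 1 and 2. Trim9 had 179, 209 and 195 CPM in controls and 217, 226 and 185 CPM after ethanol, and Trim23 had 123, 115 and 115 CPM in controls and 131, 129 and 104 CPM after ethanol. In both genes ethanol library 3 was the lowest of its group. The summed level of 4 neuron markers (Rbfox3, Snap25, Syt1 and Stmn2) was also above every control in ethanol libraries 1 and 2, with ethanol library 3 the lowest of its group, at 3413, 3623 and 3216 CPM in controls and 3823, 4156 and 3086 CPM after ethanol. Among the controls the order differed, since Trim23 was highest in library 1 and the neuron markers in library 2. The part of these cells in the values was not tested, and in whole tissue fewer cells of a type and less RNA per cell cannot be told apart.

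Without ethanol library 3, 6 of the 47 genes had an unadjusted p below 0.05 (12.8%, against 8.87% of the genes tested in that fit), and 1 of them, Trim2, had an adjusted p below 0.2 (edgeR's quasi-likelihood test), as did 83 of all 18356 genes in that fit (0.452%). The 6 were Trim54, Trim2, Trim9 and Trim23, which were higher after ethanol by 0.685, 0.29, 0.19 and 0.14 on the log2 scale, and Trim39 and Trim69, with log2 fold changes of -0.24 and -0.62. With all libraries, the corresponding values were 0.80, 0.16, 0.11, 0.04, -0.17 and -0.33. Trim39, which stabilises substrates of the anaphase-promoting complex, had 30.1, 28.5 and 30.7 CPM in controls and 26.2, 24.0 and 29.3 CPM after ethanol. Trim69 had 0.734, 0.662 and 0.757 CPM in controls and 0.514, 0.420 and 0.776 CPM after ethanol. In both genes ethanol libraries 1 and 2 were below every control and ethanol library 3 was not.

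Ethanol library 3 also differed from the other ethanol libraries in its content of choroid plexus transcripts. The sum of 9 choroid plexus markers, led by Ttr (transthyretin), was 525 to 1147 CPM in controls, 12.1 and 13.9 CPM in ethanol libraries 1 and 2, and 489 CPM in ethanol library 3. All 8 tested genes of the list had log2 fold changes below 0. Of them 3 had an unadjusted p below 0.05 from edgeR's quasi-likelihood test (37.5%, against 2.58% of all genes tested for lower genes). Otx2, a defining factor of that epithelium, had at most 0.0141 CPM in any library. The sum of the cilia and ependyma markers, led by Ccdc39, was 90.3 to 106 CPM in controls, and 73.2, 72.7 and 90.7 CPM after ethanol. Of its 6 tested genes, 4 had an unadjusted p below 0.05 from the same test (66.7%, against the same 2.58%), with all 6 estimates below 0. The choroid plexus sum was lower in every ethanol library than in every control, and Trim54 was higher in every ethanol library. The 2 differences cannot be told apart in this design. The part of choroid plexus and ependymal cells in the values of the TRIM genes was not tested.

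Among the genes above 2 RPKM, Trim59, Trim45 and Trim36 varied most within the control group. Trim59, an endoplasmic reticulum protein, had 17.8, 7.28 and 12.1 CPM in controls and 9.51, 10.3 and 15.5 CPM after ethanol, with coefficients of variation of 42.4% and 27.8%. Trim36, of the microtubule-associated subfamily, had 13.6, 8.18 and 9.84 CPM in controls and 7.75, 10.5 and 11.0 CPM after ethanol. Both genes were highest in control library 1, and ethanol library 3 was the highest of its group. A sum of 5 oligodendrocyte markers, led by Mbp, was 4311, 1697 and 3134 CPM in controls and 2174, 2886 and 5672 CPM after ethanol, with the same 2 libraries at the top. The part of these cells in the 2 genes was not tested. Trim45 had 6.36, 5.68 and 9.37 CPM in controls and 5.08, 8.07 and 7.96 CPM after ethanol, so its highest library was another one.

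**Figure D4:**
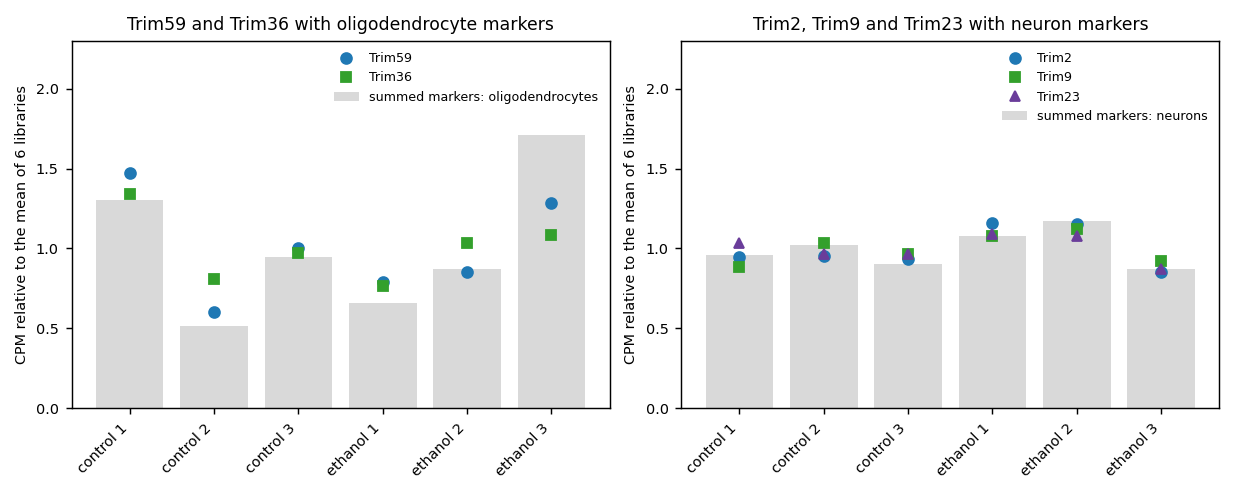
CPM of TRIM genes (points) and summed CPM of cell type markers (bars) in each library, both divided by their mean over the 6 libraries (vertical axis). Trim59 is at 1.47 in control 1 and 1.28 in ethanol 3, where the oligodendrocyte markers are at 1.30 and 1.71, and Trim2 is at 1.16, 1.15 and 0.853 in ethanol 1, 2 and 3, where the neuron markers are at 1.08, 1.17 and 0.869.

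The least variable genes were among the chromatin and PRY-SPRY members. The highest of the 6 libraries was 1.07 times the lowest for Trim35, 1.065 times for Trim62, 1.08 times for Trim24 and 1.09 times for Trim41. Trim28 lay between 134 and 151 CPM in all libraries, with a log2 fold change of 0.00 (standard error 0.06). In the ethanol group the median coefficient of variation of the 47 genes was 13.7%, against 7.93% in the control group, while over all genes tested the medians were 9.23% and 8.19%. Single genes did not share this order more than the rest, since 26 of the 47 (55.3%) had the larger coefficient in the ethanol group, against 55.8% of all genes tested.

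The genes lie on 14 chromosomes, and 14 of the 47 lie within 500 kb of another TRIM gene. The largest groups of neighbours are on chromosome 1 of Rnor_6.0, from 169410084 to 169540238 (Trim6, Trim34, Trim5, Trim30c and Trim30d, of which 3 passed the count rule), and on chromosome 20, from 2146245 to 2514546 (Trim31, Trim40, Trim10, Trim15, Trim26 and Trim39, of which 3 passed). Trim5, known for blocking retroviruses, had 14.1, 12.3 and 17.0 CPM in controls and 12.9, 11.8 and 16.6 CPM after ethanol. Its neighbour Trim34 had 11.1, 8.91 and 11.5 CPM and 8.76, 9.31 and 13.0 CPM in the same order, and Trim30d had 2.80, 2.14 and 3.45 CPM and 2.42, 2.11 and 3.00 CPM. In these 3 genes library 3 was the highest of both groups. The genes belong to 1 related gene cluster, and reads that align to several places were not counted, so their levels are uncertain. On chromosome 20, Trim15 and Trim26 overlap tail to tail in 1952 exonic bases on opposite strands, which the stranded counting separates. Trim15 had 2.55, 1.66 and 1.83 CPM in controls and 1.96, 1.28 and 2.60 CPM after ethanol, and Trim26 lay between 29.9 and 32.8 CPM.

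The TRIM genes known from innate immunity did not pass the test. Trim21, the cytosolic receptor for antibodies, had 6.88, 6.73 and 9.09 CPM in controls and 5.94, 6.17 and 8.45 CPM after ethanol, with library 3 the highest of both groups. Trim25, which activates the RNA sensor RIG-I, had 3.30, 4.14 and 3.90 CPM in controls and 3.69, 3.62 and 4.596 CPM after ethanol. Of 19 interferon-response genes that were tested, 0 had an adjusted p below 0.2 (edgeR's quasi-likelihood test). In that test 1, the antiviral GTPase Mx2, had an unadjusted p below 0.05 and was lower (5.26%, against 2.58% of all genes tested). Mx2 had 14.9, 12.9 and 22.3 CPM in controls and 9.90, 9.98 and 14.3 CPM after ethanol (log2 fold change -0.55, standard error 0.23), and its groups overlapped. The groups did not overlap for Ifit2, with 6.99, 5.93 and 6.70 CPM and 7.73, 7.57 and 7.61 CPM. The signal transducer Stat2 and its partner Irf9, the highest per length of these 19 genes, had log2 fold changes of 0.14 and 0.00.

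The E2 enzymes that hand ubiquitin to RING ligases varied little. Of 14 tested, 0 had an adjusted p below 0.2 and 0 an unadjusted p below 0.05 (edgeR's quasi-likelihood test), and their log2 fold changes lay between -0.03 and 0.10. Ube2d2 had 132, 115 and 124 CPM in controls and 128, 121 and 124 CPM after ethanol, and Ube2d3 had 310, 267 and 293 CPM and 289, 288 and 275 CPM. The family members that carry other symbols were Mid1, Mid2, Pml, Mefv and Cmya5, and 0 of the 5 passed either threshold in the same test. Mid2, a microtubule-associated ligase, had 39.9, 33.9 and 36.8 CPM in controls and 37.5, 35.5 and 41.8 CPM after ethanol. Pml, the organiser of nuclear bodies, had a log2 fold change of 0.07 (standard error 0.09).

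Marker sums of further cell types were compared between the groups. These cell types are not confined to the amygdala, so the sums do not test the tissue label. The leading pallial glutamatergic marker was Slc17a7, with the sums given beside Trim54. The markers of GABA and striatal-type neurons, led by Gad1, summed to 1082 to 1387 CPM in controls and 1124 to 1312 CPM after ethanol. These sums overlapped between the groups, as they did for astrocytes (led by Aqp4), microglia (led by Csf1r) and endothelium (led by Flt1), with 3715 to 4452 CPM, 241 to 269 CPM and 181 to 207 CPM in controls and 3834 to 5035 CPM, 239 to 279 CPM and 180 to 205 CPM after ethanol.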

How the data were processed

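The authors sequenced stranded mRNA libraries of the amygdala as single-end reads of 100 nt on 3 lanes. Per the labels and file headers, the authors aligned with STAR 2.7.0f and deposited raw counts per gene from featureCounts (Subread 1.6.3, reverse-stranded) over the exons of the NCBI Rnor_6.0 annotation. Multi-mapped reads and reads on more than 1 gene were left out, and the counts are neither normalized nor filtered.

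Symbols were matched to 29322 of 38445 identifiers through the RefSeq table (GRCr8) and to 405 more through peak annotations of the study. Genes were kept by filterByExpr (10 counts, 15 in total), scaled by TMM and compared by the quasi-likelihood test of edgeR 4.0.16 in R 4.3.3, fitted on all 18141 genes with Benjamini-Hochberg adjustment and the study's threshold of 0.2. DESeq2 1.42.0, edgeR's likelihood ratio test and limma 3.58.1 (voom and trend) were alternatives. Log2 CPM for exact tests carried a prior count of 2.

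The members and all gene lists were chosen with earlier results of these data known. Named are Trim54, members with an unadjusted p below 0.05 or groups that do not overlap, the highest members per length in each subfamily, those next to the count rule, and the leading genes of each list. Trim5, Trim15, Trim21, Trim25, Trim16, Trim26, Trim30d, Trim32, Trim33, Trim34, Trim36, Trim39, Trim43a, Trim62, Trim63, Trim69 and Trim72 and, beyond the rule, Fbxo32, Foxo3, Ifit2, Tbr1, Ube2e3, Ube2k, Ube2w, Ckm, Mb, Actc1, Tnni2, Myh1, Myh2, Myh4, Myh7, Des, Ttn, Tnnt3 and Otx2 were named after their values were seen. Some genes of these lists are not reported here, and the list values were computed without them.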

Additional observations from a re-analysis of the deposited data

How the results depend on the processing

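The number of TRIM genes that passed the count rule (47) and the numbers whose groups did not overlap (1 higher, 1 lower) were the same under each alternative tried for them. For the 47 the 1 alternative was filterByExpr, which is nearly the same rule, so the same number there says little. For the groups the alternatives were library size alone and size factors of the DESeq2 type. Trim54 was higher after ethanol in all 15 alternative fits, with a log2 fold change from 0.675 to 0.918 and an adjusted p from 0.00404 to 1. It passed the threshold of 0.2 with DESeq2 (log2 fold change 0.795, adjusted p = 0.00404) and with edgeR's likelihood ratio test (log2 fold change 0.797, adjusted p = 0.0142). Each gave 1 TRIM gene against 0, and 75 and 77 of all genes against 0. The median log2 fold change over the 47 genes was close to 0 throughout, at -0.0403 with library size alone (where the median of all genes moved to -0.020), 0.000245 with limma-voom and -0.00202 with limma-trend. Without each library in turn it lay between -0.0216 and 0.00826, the number of TRIM genes with an adjusted p below 0.2 between 0 and 1, and the number with an unadjusted p below 0.05 between 1 and 6. The highest values of both counts came without ethanol replicate 3. Trim23 ran from -0.0146 to 0.141 and was below 0 without ethanol replicate 1 and without ethanol replicate 2. The cause of these shifts was not tested.

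The control and ethanol libraries share replicate numbers but not rats. Over 14241 genes, the deviations of same-numbered libraries from their group means correlated by 0.0271, 0.387 and 0.21 for the numbers 1, 2 and 3, and control 1 correlated best with ethanol 3 (0.304), so the numbers were not taken as pairs. With the replicate block, 2 TRIM genes (Trim54 and Trim39) had an unadjusted p below 0.05 against 1 without it (4.26% against 2.13%, where all genes went from 4.15% to 5.6%), 0 had an adjusted p below 0.2, the median was -0.00202 and Trim54 had a log2 fold change of 0.801 (adjusted p = 0.483, edgeR).

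With 3 libraries of 2 pooled rats per group, both the spread between libraries and the counting error limit the precision. Their shares were not separated. The counting error is largest for the genes near the count rule, such as Trim50 with 6 to 28 counts.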
